A study of Mus musculus with 6 samples.

Results

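The fibroblast growth factor (FGF) genes of the mouse, with their receptors and the genes that answer to and restrain FGF signals, were measured in endothelium-enriched cells of embryonic day 9.5. Members were all genes named Fgf with a number, Fgfr1 to Fgfr4, Fgfrl1, Spry1 to Spry4, Spred1 to Spred3, Dusp4, Dusp6, Il17rd, Etv4, Etv5, Flrt2 and Flrt3, chosen by name. This gave 41 of the 18193 genes on the arrays, covered by 92 probe sets. Each gene was represented by its probe set with the highest mean over the 6 arrays. The cells came from 3 sites of E9.5 embryos, namely heart tube, caudal-half tissue (caudal cells) and yolk sac, of mice of mixed background, taken fresh and gated by flow cytometry on CD31 without CD41 or CD45. No treatment or mutation is named, the descriptions of all 6 samples carry "Wt", and each tissue had 2 biological replicates on an array each. How many embryos gave an array is not stated in the labels.

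FGF ligands are secreted proteins that, held by heparan sulfate, bring receptor tyrosine kinases together and switch on the RAS and ERK kinase cascade. ERK then raises transcription of the ETS factors Etv4 and Etv5 and of inhibitors that dampen the same cascade: Sprouty (Spry) and Spred proteins act on RAS and RAF, Dusp6 and Dusp4 remove phosphate from ERK, and Il17rd, also called Sef, holds the pathway back at the membrane and below it. These feedback genes are therefore often read as a record of ERK activity, although VEGF and other receptor kinases feed into the same genes. In the early embryo FGF signals are known for growth of the heart field, for elongation of the tail and for the making of vessels.

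A level here is the natural log of the authors' deposited signal, which was read as their log2 value from RMA (robust multi-array average), since no base is stated. Were the signal linear, log2 differences would be 1.44 times as large, with the same limma tests. A gene was called where the limma adjusted p, over all 18193 genes, was under 0.05. Bacterial control RNAs (27 probe sets) gave 1.33 to 4.03, and a level in that range is described as near background. Replicate arrays correlated at r = 0.981 to 0.986 over all probe sets and arrays of different tissues at 0.947 to 0.969. Pecam1, which encodes CD31, read 9.49 and 9.61 in heart tube cells, 10.08 and 9.83 in caudal cells and 10.09 and 9.82 in yolk sac cells, and Ptprc, which encodes CD45, was near background at 2.33 to 2.85 on all 6 arrays. Itga2b, which encodes CD41, lay above the bacterial controls despite the gate, at 6.81 and 6.93 in heart tube cells, 6.80 and 6.42 in caudal cells and 8.37 and 8.18 in yolk sac cells. All 10 endothelial markers had tissue means above the bacterial controls. Their list mean was 9.32 to 9.48 in heart tube cells, 10.01 to 10.10 in caudal cells and 10.32 to 10.35 in yolk sac cells, with 1 higher and 3 lower in heart tube cells against caudal-half tissue and 5 lower against the yolk sac.

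Markers of other cells differed between the tissues and are given as the mean level of each list per array. Of 12 cardiomyocyte markers 5 were higher in heart tube cells than in caudal cells and 7 higher than in yolk sac cells, with list means of 6.66 to 6.83 in heart tube cells, 4.85 to 4.86 in caudal cells and 4.20 to 4.34 in yolk sac cells. Of the 12, only 2 were near background on both heart tube arrays, Nkx2-5 and Ryr2, which were so in all 3 tissues. Tnnt2, the brightest of the list in heart tube cells, read 10.05 and 10.02 there. It read 8.20 and 8.61 in caudal cells and 5.19 and 4.12 in yolk sac cells. The 9 measured visceral endoderm markers averaged 4.17 to 4.30, 4.41 to 4.56 and 8.92 to 8.94 in heart tube cells, caudal-half tissue and yolk sac, and 7 of them were lower in each embryonic tissue than in yolk sac cells. The 6 germ cell markers averaged 4.21 to 4.34 in heart tube cells, 7.11 to 7.36 in caudal cells and 5.68 to 5.72 in yolk sac cells. Epithelial markers (6 genes) averaged 4.59 to 4.84, 6.70 to 6.92 and 8.14 to 8.15 in the same order, and 10 mesenchymal markers 7.40, 5.75 to 5.83 and 7.42 to 7.61. The close mesenchymal means of heart tube and yolk sac cells hide opposite differences, with 3 genes called higher and 4 lower in heart tube cells. The 5 measured tail bud markers averaged 3.98 to 3.99, 4.04 to 4.34 and 3.86 to 3.94 (none called by limma, with 2, 1 and 0 at an unadjusted p under 0.05 in heart tube minus caudal-half tissue, heart tube minus yolk sac and caudal-half tissue minus yolk sac). Neural tube markers (6 genes) averaged 3.77 to 3.91, 5.02 to 5.10 and 4.11 to 4.44, with 2 lower in heart tube than caudal cells, and 6 measured blood markers 4.87 to 4.91, 5.51 to 5.63 and 6.31 to 6.46, with 2 lower in each of the 3 comparisons. The part of these cells in the differences below was not tested. In bulk samples, fewer cells of a type and less RNA per cell cannot be told apart.

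**Figure D1:**
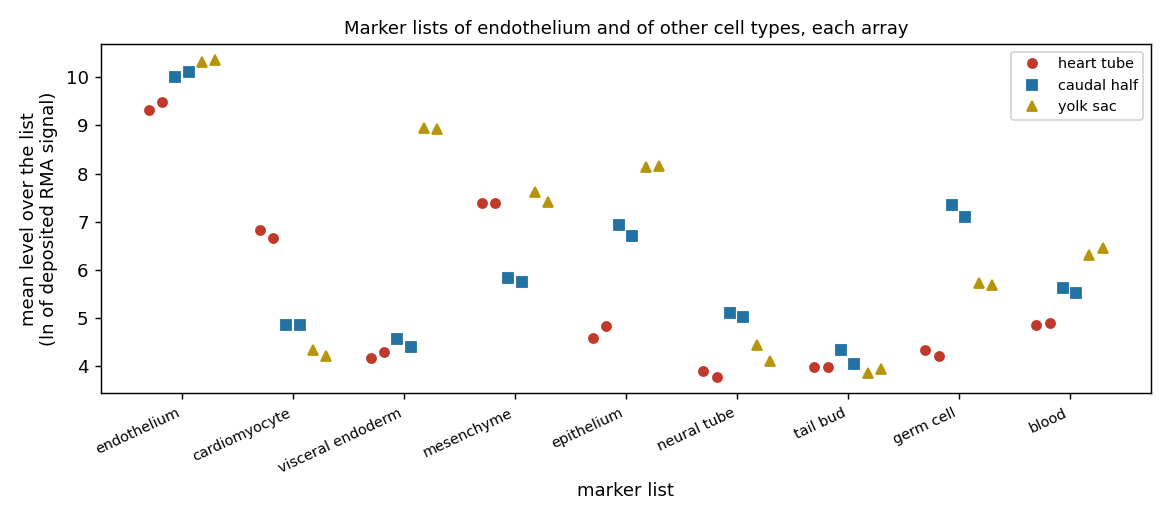
Mean level (natural log of the deposited signal) of each marker list on each array, with heart tube arrays as circles, caudal-half arrays as squares and yolk sac arrays as triangles. Cardiomyocyte markers lay at 6.66 to 6.83 in heart tube cells against at most 4.86 elsewhere, visceral endoderm markers at 8.92 to 8.94 in yolk sac cells, and germ cell markers at 7.11 to 7.36 in caudal cells.

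In heart tube cells the receptor-like gene Fgfrl1, the FGF homologue gene Fgf13 and, against the yolk sac, the receptor gene Fgfr2 were higher, while the feedback genes Spry1, Spry4, Dusp4, Dusp6 and Il17rd were lower than in caudal cells. The yolk sac had more Flrt3 and less Fgf18 than both embryonic tissues, and more Fgf1 than the heart tube. In all, 14 of the 41 members (34.1%) were called in at least 1 comparison, against 16.5% of all genes. The 27 others read 1.55 to 8.67 on single arrays. Above the bacterial controls on all 6 arrays were 25 members (61%, against 61.6% of all genes), on some arrays 6 and on none 10.

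The ligands gave weak signals. The median level of the 15 secreted paracrine and autocrine ligands was 4.28, against 5.60 over all genes. Of the 15, 7 read above the bacterial controls on all 6 arrays, against 61.6% of all genes. In any comparison 2 of the 15 were called, near the share of all genes (16.5%). Fgf18, a ligand of the Fgf8 subfamily, read 5.92 and 6.18 in heart tube cells, 6.21 and 5.96 in caudal cells and 4.81 and 4.18 in yolk sac cells. Both yolk sac arrays lay below all 4 embryonic ones. The heart tube exceeded the yolk sac by 1.55 ± 0.25 (SE; limma adjusted p = 0.0119) and caudal-half tissue exceeded it by 1.59 ± 0.25 (limma adjusted p = 0.0147), whereas the heart tube and caudal-half tissue differed by -0.04 with a 95% confidence interval of -0.65 to 0.57.

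Fgf1, a ligand without a classical signal peptide that binds all 4 receptors, read 4.80 and 4.58 in heart tube cells, 6.17 and 5.04 in caudal cells and 6.29 and 6.87 in yolk sac cells. The heart tube arrays were the lowest, and the 2 caudal arrays stood 1.13 apart. Only the difference between heart tube and yolk sac was called (-1.89 ± 0.39, limma adjusted p = 0.0269). A second Fgf1 probe set put caudal-half tissue with the heart tube, at 2.76 and 3.44 in heart tube cells, 2.85 and 2.96 in caudal cells and 6.27 and 5.59 in yolk sac cells. There the heart tube and caudal-half tissue were both near background, and each was lower than the yolk sac by at least 1.90, taken from the top of the bacterial controls (limma adjusted p = 0.00369 and 0.00468 over the 34945 named probe sets, as for every second probe set below). The third Fgf1 probe set was called in no comparison, with -0.54 for heart tube minus yolk sac (limma adjusted p = 0.186) and -0.36 for caudal-half tissue minus yolk sac (limma adjusted p = 0.401).

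Fgf2, the other member of that subfamily and a classical angiogenic factor, was near background on every array. It read 2.15 and 1.88 in heart tube cells, 1.79 and 1.87 in caudal cells and 2.43 and 3.31 in yolk sac cells. No comparison of it was called (smallest limma adjusted p = 0.088). The remaining 12 paracrine ligands and the 3 endocrine ones, Fgf15, Fgf21 and Fgf23, were called in none of the comparisons. Among them are Fgf8 and Fgf10, ligands of the heart field, and Fgf3 and Fgf4, which are known from the tail bud. On the chosen probe sets none of their single-array levels passed 5.02, the first caudal array of Fgf10. A second Fgf3 probe set differed from the chosen one and read 3.31 and 3.21 in heart tube cells, 4.84 and 4.18 in caudal cells and 3.07 and 3.17 in yolk sac cells, with caudal-half tissue called higher than either (limma adjusted p = 0.0489 for heart tube minus caudal-half tissue and 0.0272 for caudal-half tissue minus yolk sac). Its heart tube and yolk sac arrays were near background, so that the differences are bounds of at least 0.478. The third Fgf3 probe set was also highest in caudal cells, at 4.53 and 5.14, with heart tube and yolk sac arrays near background. It was not called (limma adjusted p = 0.0588 for heart tube minus caudal-half tissue and 0.0629 for caudal-half tissue minus yolk sac).

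The 4 intracellular homologues, Fgf11 to Fgf14, do not act as classical secreted ligands and are known to bind voltage-gated sodium channels. Fgf11, Fgf12 and Fgf14 were near background on all 6 arrays. Fgf13 read 6.28 and 6.66 in heart tube cells, 5.16 and 4.52 in caudal cells and 4.90 and 4.73 in yolk sac cells. Both heart tube arrays were above the other 4, and the differences of 1.63 ± 0.26 from caudal-half tissue and 1.65 ± 0.26 from the yolk sac were called (limma adjusted p = 0.0195 and 0.0105). Its second probe set, with heart tube arrays at 4.76 and 4.12 and the other 4 near background, was not called (limma adjusted p = 0.0749 and 0.0528). Of the markers, 5 of 12 cardiomyocyte and 6 of 10 mesenchymal genes were also called higher in heart tube cells than in caudal cells, while 2 and 4 of them had a negative difference, and their part in the Fgf13 difference was not tested.

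**Figure D2:**
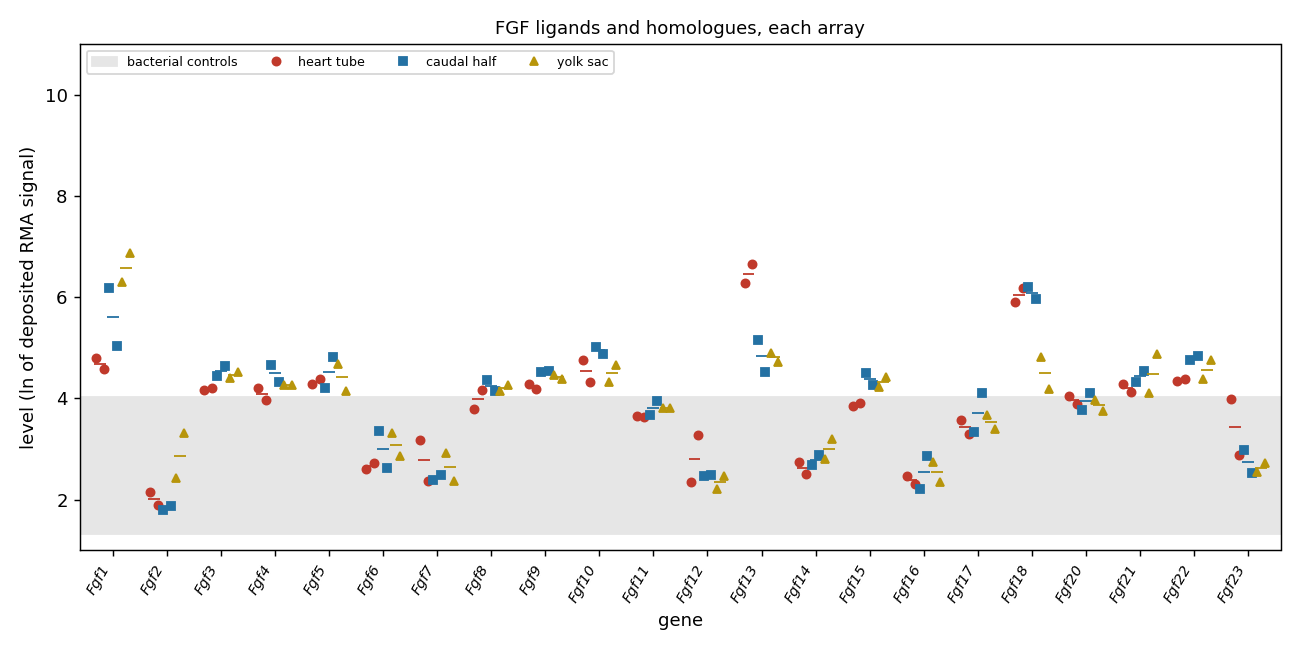
Level (natural log of the deposited signal) of the 22 Fgf genes on each array, with the mean of each tissue as a short line and the range of the bacterial controls (1.33 to 4.03) shaded. Fgf13 stood higher in heart tube cells (6.28 and 6.66), Fgf18 lower in yolk sac cells (4.81 and 4.18) and Fgf1 lower in heart tube cells (4.80 and 4.58) than in yolk sac cells.

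Among the receptors, Fgfrl1 set the heart tube apart. It encodes a receptor that binds FGFs and heparan sulfate but has no tyrosine kinase domain. It read 9.55 and 9.84 in heart tube cells, 6.63 and 7.34 in caudal cells and 7.34 and 6.84 in yolk sac cells. The heart tube arrays were above the other 4 without overlap, by 2.71 ± 0.30 over caudal-half tissue (limma adjusted p = 0.00497) and 2.60 ± 0.30 over the yolk sac (limma adjusted p = 0.00311). Between caudal-half tissue and the yolk sac the difference was -0.11, with an interval of -0.82 to 0.60. The second Fgfrl1 probe set gave 2.23 ± 0.41 and 2.63 ± 0.41 in the same 2 comparisons (limma adjusted p = 0.0371 and 0.0122).

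Fgfr1, the main receptor of many mesodermal cells, read 7.65 and 8.25 in heart tube cells, 8.24 and 8.19 in caudal cells and 7.93 and 7.50 in yolk sac cells, and the heart tube overlapped with both other tissues. It was not called, and its 95% intervals reached from -0.88 to 0.35 for heart tube minus caudal-half tissue, -0.38 to 0.85 for heart tube minus yolk sac and -0.12 to 1.11 for caudal-half tissue minus yolk sac. Another Fgfr1 probe set had its highest levels in heart tube cells and was not called either (heart tube minus caudal-half tissue 0.74, limma adjusted p = 0.199). Fgfr2 read 8.18 and 8.06 in heart tube cells, 7.21 and 7.01 in caudal cells and 7.13 and 6.39 in yolk sac cells. The heart tube was the highest in both arrays, but only its difference from the yolk sac was called (1.36 ± 0.27, limma adjusted p = 0.0227), while that from caudal-half tissue was not (1.01 ± 0.27, limma adjusted p = 0.0937). With another Fgfr2 probe set the 2 calls were the other way round, at 1.53 ± 0.29 against caudal-half tissue (limma adjusted p = 0.0403) and 0.90 ± 0.29 against the yolk sac (limma adjusted p = 0.111).

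Fgfr3 read 6.41 and 6.45 in heart tube cells, 5.39 and 5.65 in caudal cells and 6.58 and 5.98 in yolk sac cells. Caudal-half tissue was the lowest, yet no comparison was called (limma adjusted p = 0.0897 for heart tube minus caudal-half tissue, 0.108 for caudal-half tissue minus yolk sac). A second Fgfr3 probe set had the opposite order, with 5.07 and 4.77 in heart tube cells, 5.41 and 5.09 in caudal cells and 4.93 and 4.94 in yolk sac cells, and was not called either (heart tube minus caudal-half tissue -0.33, limma adjusted p = 0.456). Fgfr4, the receptor that with the co-receptor beta-Klotho reads endocrine FGFs in liver, was between 3.71 and 4.10 on all arrays and not called. Another Fgfr4 probe set was higher in yolk sac cells at 3.65 and 3.51, against 2.40 and 2.70 in heart tube cells and 2.58 in both caudal arrays (limma adjusted p = 0.0206 and 0.0301), although all these levels were near background and no size is given. Klb, which encodes beta-Klotho, read 2.43 and 2.89 in heart tube cells, 2.14 and 3.48 in caudal cells and 5.58 and 6.03 in yolk sac cells. It was near background on all 4 embryonic arrays, and lower there than in yolk sac cells by at least 1.78 (limma adjusted p = 0.00688 for heart tube minus yolk sac and 0.0113 for caudal-half tissue minus yolk sac). The visceral endoderm list was higher in the same yolk sac arrays, and its part in these differences was not tested.

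Flrt2 and Flrt3 encode transmembrane proteins with leucine-rich repeats and a fibronectin domain that can bind FGF receptors and also Unc5 and latrophilin receptors. Flrt3 read 6.95 and 7.18 in heart tube cells, 7.46 and 7.36 in caudal cells and 9.47 and 9.43 in yolk sac cells. The yolk sac arrays stood apart from the other 4 (heart tube minus yolk sac -2.39 ± 0.17, limma adjusted p = 0.000544; caudal-half tissue minus yolk sac -2.04 ± 0.17, limma adjusted p = 0.00163). The second Flrt3 probe set gave -2.12 ± 0.18 and -2.09 ± 0.18. Of the visceral endoderm and epithelial markers, 7 of 9 and 6 of 6 were also called lower in heart tube than in yolk sac cells. Against caudal cells, 7 and 3 of them were higher in yolk sac cells. Their part in the Flrt3 differences was not tested. Flrt2 read 8.38 and 8.91 in heart tube cells, 9.39 and 9.41 in caudal cells and 9.76 and 9.79 in yolk sac cells, in that order without overlap. Only heart tube minus yolk sac was called for it (-1.13 ± 0.21, limma adjusted p = 0.0199), and its 2 other probe sets, at -0.65 and -0.42, were not.

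All 10 feedback inhibitors had a lower mean in heart tube cells than in caudal cells, as did 10828 of all 18193 genes. Of the 10, Spry3 and Spred3 were near background on every array. Called lower were 5, namely Spry1, Spry4, Dusp4, Dusp6 and Il17rd. The median difference of the 10 was -0.82, against -0.08 over all genes, of which 2.65% were called lower. Spry1 read 4.16 and 4.37 in heart tube cells, 7.11 and 6.05 in caudal cells and 5.84 and 5.48 in yolk sac cells. Both heart tube arrays were close to the upper end of the bacterial controls and below all others. The heart tube was lower than caudal-half tissue (-2.31 ± 0.35, limma adjusted p = 0.0167), and its difference from the yolk sac narrowly missed (-1.39 ± 0.35, limma adjusted p = 0.0526).

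Spry4 read 5.93 and 5.79 in heart tube cells, 7.57 and 7.17 in caudal cells and 7.15 and 7.005 in yolk sac cells. The heart tube was below both other tissues without overlap (-1.50 ± 0.20, limma adjusted p = 0.00951, and -1.21 ± 0.20, limma adjusted p = 0.0117). Of its 4 probe sets, 3 were called against caudal-half tissue and 2 against the yolk sac. Il17rd was also lowest in heart tube cells, at 5.71 and 6.19 in heart tube cells, 7.21 and 7.55 in caudal cells and 7.21 and 7.31 in yolk sac cells. It was lower in heart tube cells than in caudal cells (-1.43 ± 0.23, limma adjusted p = 0.0189) and the yolk sac (-1.31 ± 0.23, limma adjusted p = 0.0145), and its second probe set was called in both (-1.30 and -1.80). Caudal-half tissue minus yolk sac was called with neither probe set, and its sign differed between them (0.12 and -0.50).

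The ERK phosphatase genes were highest in caudal cells. Dusp6 read 9.45 and 9.59 in heart tube cells, 10.52 and 10.48 in caudal cells and 10.03 and 9.95 in yolk sac cells. The 3 tissues did not overlap, and heart tube minus caudal-half tissue was called (-0.98 ± 0.16, limma adjusted p = 0.0209), while the other 2 were not (-0.47 for heart tube minus yolk sac and 0.51 for caudal-half tissue minus yolk sac). Dusp4 read 7.36 and 7.56 in heart tube cells, 8.61 and 8.52 in caudal cells and 7.51 and 7.74 in yolk sac cells. Here the heart tube and the yolk sac overlapped, and caudal-half tissue stood above both (heart tube minus caudal-half tissue -1.11 ± 0.18, limma adjusted p = 0.0197; caudal-half tissue minus yolk sac 0.94 ± 0.18, limma adjusted p = 0.0254).

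Spry2 followed Dusp4 in form, with 8.53 and 8.71 in heart tube cells, 9.25 and 9.28 in caudal cells and 8.55 and 8.59 in yolk sac cells. Caudal-half tissue minus yolk sac was called (0.70 ± 0.16, limma adjusted p = 0.0482) and heart tube minus caudal-half tissue was not (-0.65 ± 0.16, limma adjusted p = 0.0823). The second Spry2 probe set was called in neither, at 0.41 and -0.74 (limma adjusted p = 0.552 and 0.330). Spry3 was near background on all arrays, at 1.55 to 2.27, as was Spred3. Spred1 and Spred2 were not called, with differences of -0.49 and -0.32 for heart tube minus caudal-half tissue. A second Spred2 probe set was called for caudal-half tissue minus yolk sac (0.88 ± 0.18, limma adjusted p = 0.0403).

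Etv4 and Etv5, the ETS factors that FGF signals switch on, also had their highest means in caudal cells. Etv4 read 5.20 and 5.15 in heart tube cells, 6.47 and 5.54 in caudal cells and 4.74 and 4.68 in yolk sac cells. The caudal arrays were above the others but far from each other, and caudal-half tissue minus yolk sac was called narrowly (1.30 ± 0.30, limma adjusted p = 0.0476). The second Etv4 probe set was near background on every array and gave 0.01 there (limma adjusted p = 0.986). Etv5 read 6.53 and 6.79 in heart tube cells, 7.56 and 7.76 in caudal cells and 6.66 and 7.08 in yolk sac cells, and heart tube minus caudal-half tissue narrowly missed (-0.997 ± 0.214, limma adjusted p = 0.0512). Its 2 other probe sets gave smaller differences there, -0.39 and -0.57 (limma adjusted p = 0.368 and 0.654). Beside these differences, the germ cell and epithelial lists were also lower in heart tube cells than in caudal cells, in 4 of 6 and 5 of 6 genes. The neural tube and blood lists had 2 of 6 genes each called lower. Of the 10 endothelial markers 3 were called lower and 1 higher, with a median difference of -0.66. The cardiomyocyte and mesenchymal lists went the other way, with 5 and 6 genes called higher. The part of these lists in the differences was not tested.

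**Figure D3:**
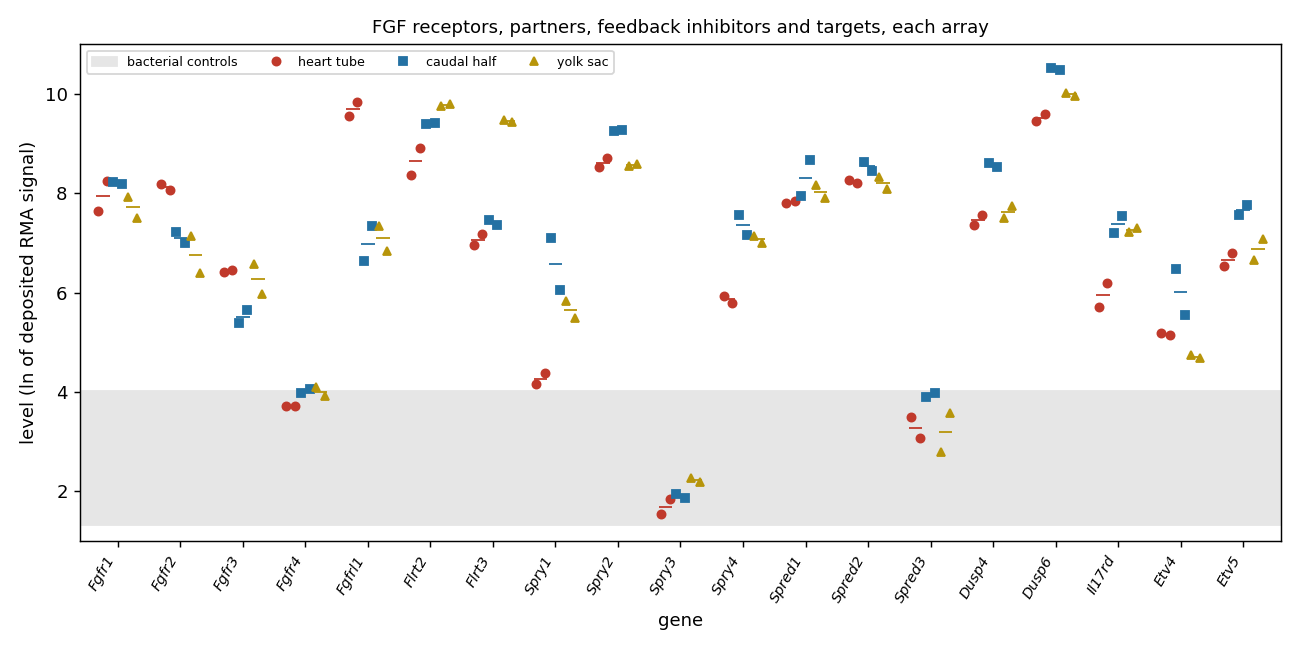
Level (natural log of the deposited signal) of the receptors, Flrt genes, feedback inhibitors and ETS factors on each array, with the mean of each tissue as a short line and the range of the bacterial controls shaded. Fgfrl1 was higher in heart tube cells (9.55 and 9.84), Flrt3 in yolk sac cells (9.47 and 9.43), and the heart tube arrays of Spry1, Spry4, Dusp6 and Il17rd lay below all others.

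Promoter windows, from 250 bases before to 50 after the start of transcription, are shown for Fgfrl1, whose level set the heart tube apart, for Dusp6, Spry1 and Il17rd, which were lower there together, and for Flrt3 of the yolk sac. They are RefSeq sequences of the GRCm38.p6 assembly on the strand of the gene, and 30 of the 41 members matched by symbol. Capitals mark GGAA, the core of ETS sites, on either strand (read as TTCC on the other), and in Fgfrl1 the longer ETS sequence CCGGAAGT, which contains it. The windows lie at chr5:108693979-108694278 (+ strand) for Fgfrl1, chr10:99262981-99263280 (+) for Dusp6, chr3:37639697-37639996 (+) for Spry1, chr14:27038751-27039050 (+) for Il17rd and chr2:140671427-140671726 (- strand) for Flrt3.
Fgfrl1: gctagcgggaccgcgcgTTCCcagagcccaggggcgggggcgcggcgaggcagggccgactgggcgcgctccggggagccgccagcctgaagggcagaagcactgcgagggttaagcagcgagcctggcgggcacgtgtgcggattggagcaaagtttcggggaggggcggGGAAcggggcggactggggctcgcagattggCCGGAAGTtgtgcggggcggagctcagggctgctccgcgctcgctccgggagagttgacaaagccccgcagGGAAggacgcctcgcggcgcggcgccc
Dusp6: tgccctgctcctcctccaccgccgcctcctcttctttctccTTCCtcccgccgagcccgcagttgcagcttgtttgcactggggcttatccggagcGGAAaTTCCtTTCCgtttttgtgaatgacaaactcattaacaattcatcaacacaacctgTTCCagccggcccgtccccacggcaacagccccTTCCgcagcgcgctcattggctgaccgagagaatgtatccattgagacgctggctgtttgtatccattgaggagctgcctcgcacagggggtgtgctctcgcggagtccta
Spry1: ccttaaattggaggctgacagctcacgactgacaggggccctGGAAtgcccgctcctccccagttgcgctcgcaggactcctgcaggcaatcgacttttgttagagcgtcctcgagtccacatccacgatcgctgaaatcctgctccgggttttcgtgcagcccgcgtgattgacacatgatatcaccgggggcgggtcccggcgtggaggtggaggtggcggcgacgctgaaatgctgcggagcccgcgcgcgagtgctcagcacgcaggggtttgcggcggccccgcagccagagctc
Il17rd: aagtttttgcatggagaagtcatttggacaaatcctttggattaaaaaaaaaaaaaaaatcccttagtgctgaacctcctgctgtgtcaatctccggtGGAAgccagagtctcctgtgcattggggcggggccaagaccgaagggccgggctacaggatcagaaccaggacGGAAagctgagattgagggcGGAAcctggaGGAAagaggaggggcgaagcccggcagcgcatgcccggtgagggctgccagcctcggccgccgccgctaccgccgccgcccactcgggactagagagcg
Flrt3: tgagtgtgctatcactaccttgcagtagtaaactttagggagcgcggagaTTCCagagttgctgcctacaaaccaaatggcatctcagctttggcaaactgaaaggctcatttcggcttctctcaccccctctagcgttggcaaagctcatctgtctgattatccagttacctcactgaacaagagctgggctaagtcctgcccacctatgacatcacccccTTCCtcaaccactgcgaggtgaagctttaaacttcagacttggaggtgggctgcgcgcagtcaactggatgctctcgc

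Sites of GGAA on either strand numbered 4 in the Fgfrl1 window, 6 in Dusp6, 1 in Spry1, 4 in Il17rd and 2 in Flrt3. At least 1 such site was present in 94.7% of the 38 member windows and in 96% of all 32851 windows, so its presence describes nearly every promoter. CCGGAAGT was found in the Fgfrl1 window alone among members, starting 48 bases before the start of transcription, and in 3.89% of all windows. AGGAAGT, which also contains GGAA, was found in windows of Etv5 and Spred2 (9.35% of all), and TGANTCA, the AP-1 site, in windows of Fgf12 and Fgf13 (7.81% of all). Both strands were searched for each motif. The member windows had a median of 19 CpG dinucleotides, against 7 over all windows, with 37 in Fgfrl1 and 8 in Flrt3. These matches are letters in the windows and not measured sites.

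Between heart tube and caudal-half tissue, 7 of 41 members (17.1%) were called, 2 higher and 5 lower, against 5.51% of all genes (2.86% higher and 2.65% lower). The members' median difference was -0.30 and that of all genes -0.08. By role, 1 of 4 intracellular homologues and 1 of 5 receptors were higher, 5 of 10 feedback inhibitors were lower, and none of the 18 secreted ligands, the 2 Flrt genes or the 2 ETS factors was called, where 1 ligand, 1 endocrine ligand, 1 Flrt gene and both ETS factors had an unadjusted p under 0.05 in limma. With 1 array left out, the lone array of its tissue is assumed to vary like the others, and counts fell over all genes too. Leaving out either array of the tissue not compared gave the same fit, that of the 2 tissues alone, and is no separate check. The members' count was 1 without the first heart tube array (380 of all genes), 2 without the second (416), 3 without the first caudal array (376) and 4 without the second (556), while the differences of the 7 called members were 0.771 to 1.23 times their values with all arrays. Fgfrl1 kept its call whichever of the 6 arrays was left out (highest limma adjusted p = 0.039). Spry1 lost it without either heart tube array (up to 0.105), Spry4 without either heart tube array or the first caudal one (up to 0.0703), Il17rd without the first heart tube or either caudal array (up to 0.104), Fgf13 without the second caudal or either heart tube array (up to 0.116), and Dusp4 and Dusp6 whichever of these 4 arrays was left out (up to 0.128 and 0.135). No called member changed sign.

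In heart tube minus yolk sac 9 of 41 members (22%) were called, 4 higher and 5 lower, against 11.8% of all genes (5.14% higher and 6.67% lower). The higher ones were Fgf13, Fgf18, Fgfr2 and Fgfrl1, and the lower ones Fgf1, Flrt2, Flrt3, Il17rd and Spry4. The members' median was -0.17 and that of all genes -0.06. Of the feedback inhibitors 2 of 10 were lower, with a median of -0.34. The count was 3 without the first heart tube array (936 of all genes), 4 without the second (1024), 6 without the first yolk sac array (1306) and 4 without the second (1490), with differences of 0.726 to 1.27 times those with all arrays. Fgfrl1 and Flrt3 stayed called whichever of the 6 arrays was left out. Fgf1 lost its call whichever of the 4 arrays compared was left out (up to 0.13), Fgf18 without either heart tube array (up to 0.0772), Fgf13 without the second heart tube or second yolk sac array (up to 0.0682), Fgfr2 without either heart tube or the second yolk sac array (up to 0.118), Spry4 without either heart tube or the first yolk sac array (up to 0.0768), and Flrt2 and Il17rd without the first heart tube or either yolk sac array (up to 0.0922 and 0.0821).

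In caudal-half tissue minus yolk sac 5 of 41 members (12.2%) were called, 4 higher (Fgf18, Dusp4, Spry2 and Etv4) and Flrt3 lower, against 9.08% of all genes (4.22% higher and 4.86% lower). The members' share was thus near that of all genes, and their median difference was 0.11 against 0.02. No receptor was called, with limits of the 95% intervals between -1.33 and 1.11. The feedback inhibitors had a median of 0.43, with 2 of 10 higher. With 1 array left out the count was 1 (first caudal, 638 of all genes), 3 (second caudal, 742, or first yolk sac, 766, or either heart tube array, 1155) or 2 (second yolk sac, 1035). The differences were 0.643 to 1.36 times those with all arrays, and that of Etv4 was 0.836 without the first caudal array. Flrt3 kept its call whichever of the 6 arrays was left out, Fgf18 lost it without either caudal array (up to 0.0871) and Dusp4 when any 1 caudal or yolk sac array was left out (up to 0.116). Spry2 lost its call whichever of the 6 arrays was left out (up to 0.156), and Etv4 in each case but that of the second caudal array (up to 0.148). The 3 comparisons share arrays pairwise and are not independent of each other.

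**Figure D4:**
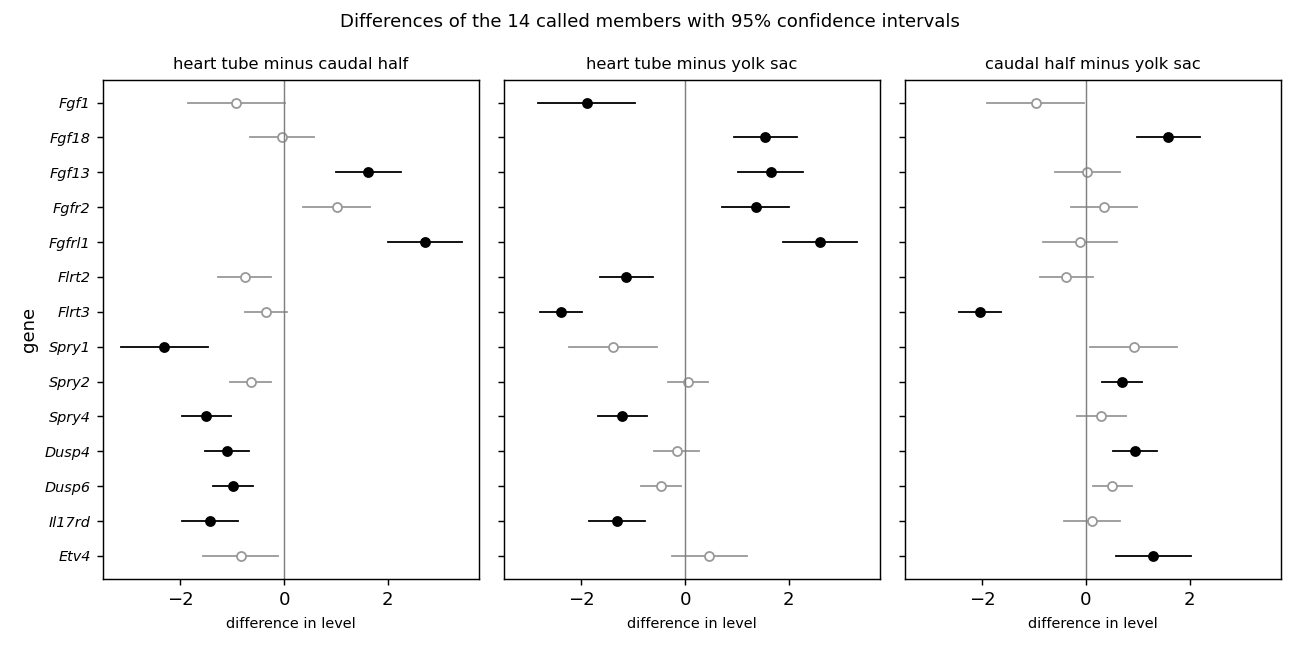
Difference in level (natural log of the deposited signal) of the 14 called members in the 3 comparisons, with limma's 95% confidence intervals. Filled points passed a limma adjusted p under 0.05 and open points did not. Fgfrl1 stood at 2.71 and 2.60 in the 2 comparisons of the heart tube, Spry1 at -2.31 against caudal-half tissue, and Flrt3 at -2.39 and -2.04 in the 2 comparisons with the yolk sac.

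Other genes of the pathway were read in 3 lists. The 16 measured genes of the relay from receptor to ERK, such as the adaptors Grb2 and Gab1 and the kinases Braf and Map2k1, had list means of 8.39 to 8.40 in heart tube cells, 8.40 to 8.47 in caudal cells and 8.24 to 8.32 in yolk sac cells. Against the yolk sac 2 of 16 were called, near the share of all genes (11.8%). Both were higher in heart tube cells, the adaptor Gab2 (1.03 ± 0.21, limma adjusted p = 0.0251) and the phosphatase Ptpn11 (0.72 ± 0.16, limma adjusted p = 0.0367). Both calls were lost when any 1 heart tube or yolk sac array was left out, and Ptpn11 also without either caudal array. In the other 2 comparisons none was called (4 and 3 had an unadjusted p under 0.05 in limma).

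Of 27 measured genes of heparan sulfate and co-receptors, 5 were higher and none lower in heart tube cells than in caudal cells (median 0.09). Over all genes 2.86% were higher and 2.65% lower there (median -0.08). In heart tube minus yolk sac 5 were higher and 4 lower, against 5.14% and 6.67% of all genes. In caudal-half tissue minus yolk sac 2 were higher and 3 lower, against 4.22% and 4.86% of all genes. Sulf1, a sulfatase that trims heparan sulfate and weakens FGF binding, read 9.16 and 9.44 in heart tube cells, 6.64 and 7.32 in caudal cells and 7.21 and 6.89 in yolk sac cells. The heart tube arrays lay above the rest (2.32 ± 0.27, limma adjusted p = 0.00621, and 2.25 ± 0.27, limma adjusted p = 0.00387). Gpc1, the heparan sulfate proteoglycan glypican-1, read 8.21 and 8.03 in heart tube cells, 7.05 and 6.80 in caudal cells and 5.59 and 5.86 in yolk sac cells, in falling order without overlap. All 3 of its comparisons were called (1.19, 2.40 and 1.20; limma adjusted p = 0.0195, 0.000842 and 0.0143). Cdh2, N-cadherin, which can bind FGF receptors, was higher in caudal cells than in yolk sac cells (8.89 and 9.11 against 4.52 and 6.14; 3.67 ± 0.48, limma adjusted p = 0.00763). Sulf1 was called against caudal-half tissue whichever array was left out, but Gpc1 lost that call when any 1 heart tube or caudal array was, Gpc1 lost caudal-half tissue minus yolk sac without the first array of either tissue, and Cdh2 lost its call without the second caudal array. Klb lost heart tube minus yolk sac without the first heart tube array and caudal-half tissue minus yolk sac without the second yolk sac array.

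The 18 measured genes of the third list also answer to ERK and other signals but are no members. In heart tube minus caudal-half tissue 1 was higher and 5 were lower (median -0.53), against 2.86% and 2.65% of all genes (median -0.08). In heart tube minus yolk sac 5 were higher and 3 lower (median 0.04), against 5.14% and 6.67% of all genes (median -0.06). In caudal-half tissue minus yolk sac 6 were higher and none lower (median 0.62), against 4.22% and 4.86% of all genes (median 0.02). Ier3, an immediate early gene, read 6.34 and 6.28 in heart tube cells, 8.63 and 8.76 in caudal cells and 7.12 and 7.20 in yolk sac cells. Caudal-half tissue was the highest (heart tube minus caudal-half tissue -2.39 ± 0.16, limma adjusted p = 0.000966; caudal-half tissue minus yolk sac 1.53 ± 0.16, limma adjusted p = 0.00365). Fos instead was highest in yolk sac cells, at 8.49 and 8.47 in heart tube cells, 9.71 and 9.58 in caudal cells and 10.14 and 10.25 in yolk sac cells, and the heart tube was lower than both (-1.16 ± 0.16 and -1.71 ± 0.16; limma adjusted p = 0.012 and 0.00156). Shisa2, whose frog relative holds FGF and Wnt receptors inside the cell, was higher in heart tube cells (6.05 and 6.43) than in caudal cells (4.52 and 4.77) and the yolk sac (3.83 and 4.36), by 1.59 ± 0.25 and 2.15 ± 0.25 (limma adjusted p = 0.0177 and 0.00326). Errfi1, a feedback inhibitor of the EGF receptor, was lowest in yolk sac cells at 7.01 and 7.61, against 8.39 and 8.59 in heart tube cells and 8.94 and 9.03 in caudal cells.

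Of these calls, Ier3 kept that of heart tube minus caudal-half tissue and that of caudal-half tissue minus yolk sac whichever array was left out, and lost that of heart tube minus yolk sac (-0.85) when any 1 heart tube or yolk sac array was. Shisa2 lost heart tube minus caudal-half tissue when any 1 heart tube or caudal array was left out, and Fos without either heart tube array or the first caudal one. Errfi1 lost heart tube minus yolk sac without either heart tube or the first yolk sac array, and caudal-half tissue minus yolk sac without either caudal array.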

How the data were processed

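Biotin-labelled total RNA of 6 samples was hybridised to Affymetrix mouse arrays, 2 biological replicates each of heart tube, caudal-half tissue and yolk sac. Per the submitters' processing notes, the authors used RMA and affy for the deposited intensity values. No version, filter or chip definition is stated there. Deposited signals ran from 2.46 to 2172540, beyond a scanner's range, and the natural log of these, 0.899 to 14.6, spans what RMA gives on its log2 scale, so it was used; the design had assumed a log scale and the test was kept. Of 45101 probe sets, 34945 carried 1 symbol in the platform annotation, 932 several and 9211 none. A model of tissue means was run in R 4.3.3 with limma 3.58.1 (lmFit, eBayes, two-sided, Benjamini-Hochberg) over all 6 arrays without a covariate, with 3 residual and 3.48 prior degrees of freedom. The number of arrays limits the precision (median SE 0.210). The fit was tested on simulated data. Alternatives were another gene summary, a filter on dim genes, another prior, median centring, log2 of the signal, 2-tissue fits, a replicate block and leaving out each array. The members and lists were chosen with earlier results of these data known, and the promoters shown and the motif GGAA after the values were seen. All members may be named, with array values for those called and for Fgf2, the receptors, Sprouty genes and Dusp6, and up to 4 called genes per list.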

Additional observations from a re-analysis of the deposited data

How the results depend on the processing

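No called member changed sign under any of the 13 alternatives. Leaving out 1 array moved the counts of called members to between 1 and 8 (heart tube minus caudal-half tissue), 3 and 10 (heart tube minus yolk sac) and 1 and 3 (caudal-half tissue minus yolk sac), and those of all genes to between 376 and 899, 936 and 1794, and 638 and 1155. With both replicates kept, counts of called members moved by over 1.5 times only in caudal-half tissue minus yolk sac, to 3 with the 2 tissues compared alone and to 3 with the replicate block, where Spry2 and Etv4 were lost; both were also lost when a gene's probe sets were averaged (limma adjusted p up to 0.151 and 0.108). The replicate block gave 8 called members in heart tube minus caudal-half tissue and 9 in heart tube minus yolk sac, and 776, 1876 and 1356 genes in all. The labels do not say whether same-numbered samples were handled together. Their deviations from the tissue means correlated at 0.047, -0.0068 and 0.019. Etv5 passed in heart tube minus caudal-half tissue without dim genes, with the block, with centred arrays and with an intensity trend (0.0382 to 0.0462), and Spry1 passed in heart tube minus yolk sac without dim genes, with the mean of probe sets, with 2 tissues alone and with the trend (0.0173 to 0.0452). With a gene's probe sets averaged, Fgf3 (heart tube minus caudal-half tissue 0.0147, caudal-half tissue minus yolk sac 0.016), Fgf5 (heart tube minus caudal-half tissue 0.0447), Fgfr2 (heart tube minus caudal-half tissue 0.0196), Fgf1 and Spred2 (caudal-half tissue minus yolk sac 0.00273 and 0.0347) passed as well. Fgfr2 also passed with 2 tissues alone (0.0402). With the trend, Dusp6 passed in heart tube minus yolk sac (0.0249) and caudal-half tissue minus yolk sac (0.0197), Fgf2 in caudal-half tissue minus yolk sac (0.0449), and Flrt2 and Spry2 in heart tube minus caudal-half tissue (0.0412 and 0.0333). Without 1 array, Fgf2 (first yolk sac; 0.0323 and 0.0304 against the yolk sac), Etv4 in heart tube minus caudal-half tissue (second caudal; 0.0418) and Spry1 in caudal-half tissue minus yolk sac (second caudal; 0.0472) passed. Signals near the bacterial controls limit 16 members, which were not above them on every array.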
